A study of Homo sapiens with 6 samples.

Results

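In U251 cells, an established human glioma line, 10 genes for the enzymes that set the pace and the end product of glycolysis were followed with and without SLCDS. They are HK1 and HK2 (hexokinase), PFKL, PFKM and PFKP (phosphofructokinase), PFKFB3 (its regulator), PKM (pyruvate kinase), LDHA and LDHB (lactate dehydrogenase) and PDK1 (a kinase that restrains pyruvate dehydrogenase). The 10 were picked by symbol, because isoforms of these enzymes are known to differ between glioma and neurons, and all 10 are present among the 16832 gene symbols of the series. Every library came from wild-type U251 cells. Cells of 3 libraries had been incubated with SLCDS, a small-molecule combination whose components are not named in the labels, over 18 days. Those of 3 control libraries had been given PBS, for a time that the labels leave out. Nor do the labels say whether the 3 libraries of a group came from separate cultures. The p-values therefore measure the spread between these libraries, which may be technical. Since the series is titled as one on neuronal-like cells, the comparison asks whether the isoform pattern of glycolysis differs between treated and untreated cells.

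Glycolysis turns glucose into pyruvate. Hexokinase, phosphofructokinase and pyruvate kinase catalyse its practically irreversible steps. Each exists as several isoforms encoded by separate genes. Proliferating tumour cells typically rely on HK2, PFKFB3, the M2 splice form of PKM and LDHA and release lactate, whereas neurons depend mainly on HK1, LDHB and oxidation of pyruvate in mitochondria.

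Expression was given as FPKM, fragments scaled by transcript length and library depth. Comparisons of levels between genes also rest on how overlapping and repeated sequence was counted, which is not given in the sources used here. Depth, estimated from the spacing of low FPKM values, was about 16300000 to 17200000 fragments per library. Control replicate 3 stood apart: its correlation across genes with control replicates 1 and 2 was 0.9765 and 0.9767, against 0.9969 between replicates 1 and 2, and its FPKM values summed to 348904 against 295203 to 310281 in the other 5 libraries. The glioma and astroglia markers GFAP, VIM, NES, SOX2, S100B and EGFR were all at 1 FPKM or more in every library, with summed levels of 2300 to 2380 FPKM in SLCDS and 2350 to 2770 FPKM in control; 1 of the 6, GFAP, fell. Of 7 neuron markers, 3 (DCX, RBFOX3 and SYN1) were under 1 FPKM in every library, and none of the 4 tested passed. Their summed levels, 74.6 to 76.9 FPKM in SLCDS and 82.3 to 89.1 FPKM in control, rest mostly on TUBB3 (means of 29.5 and 39.4 FPKM), which shares 79.4% of its 75-base windows with other genes, NEFL (28.9 and 25.96 FPKM) and MAP2 (14.7 and 18.5 FPKM). With control replicate 3 left out, NEFL and SYP passed as higher and TUBB3 and MAP2 as lower. Of the glioma and astroglia markers, NES and S100B then passed as higher and GFAP, SOX2 and EGFR as lower. Of 13 markers of immune, endothelial, mesenchymal, oligodendroglial and epithelial cells, 7 were under 1 FPKM in every library. The endothelial PECAM1 and the mesenchymal DCN were among the 7. Of the 5 tested, 2 rose, PDGFRB (1.77 against 0.36 FPKM) and CDH5 (4.81 against 1.91 FPKM). None fell, beside 4.28% higher and 1.82% lower of all genes tested. With control replicate 3 left out, CD68 passed as higher too, making 3 of 5, beside 16.0% higher of all genes tested. The 13 summed to 374 to 384 FPKM in SLCDS and 370 to 403 FPKM in control. Most of that came from the mesenchymal marker COL1A2, with means of 365 and 374 FPKM (limma, adjusted p = 0.871). The mesenchymal marker COL1A1 was scarce, with means of 0.59 and 1.00 FPKM. COL1A1 was not tested, and lay lower in every SLCDS library than in any control. The adjusted p of CDH5 was 0.0557, 0.0506 and 0.0619 without SLCDS replicates 1, 2 and 3, and the part of these markers in the results below was not tested. In bulk RNA, fewer cells of a type and less RNA per cell cannot be told apart.

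None of the 10 genes passed the test over all 6 libraries (limma on log2(FPKM + 1), adjusted p under 0.05, 2-sided; 1 of the 10 had an unadjusted p under 0.05). Of all 11506 genes tested, 6.09% passed. The closest was HK2, which stood 1.24 times higher in SLCDS by the ratio of mean FPKM. All 3 SLCDS libraries lay on one side of all 3 controls for 5 of the 10 genes, HK1, HK2, PFKM, PFKP and PFKFB3, beside 29.1% of all genes tested. Without control replicate 3, 3 of the 10 passed: HK2 and PKM were higher and HK1 lower in SLCDS, beside 27.7% of all genes tested (16.0% higher and 11.8% lower). A share of 3 in 10 lies near that background. The median log2 fold change of the 10 was 0.05, and 0.00 over all genes tested.

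**Figure D1:**
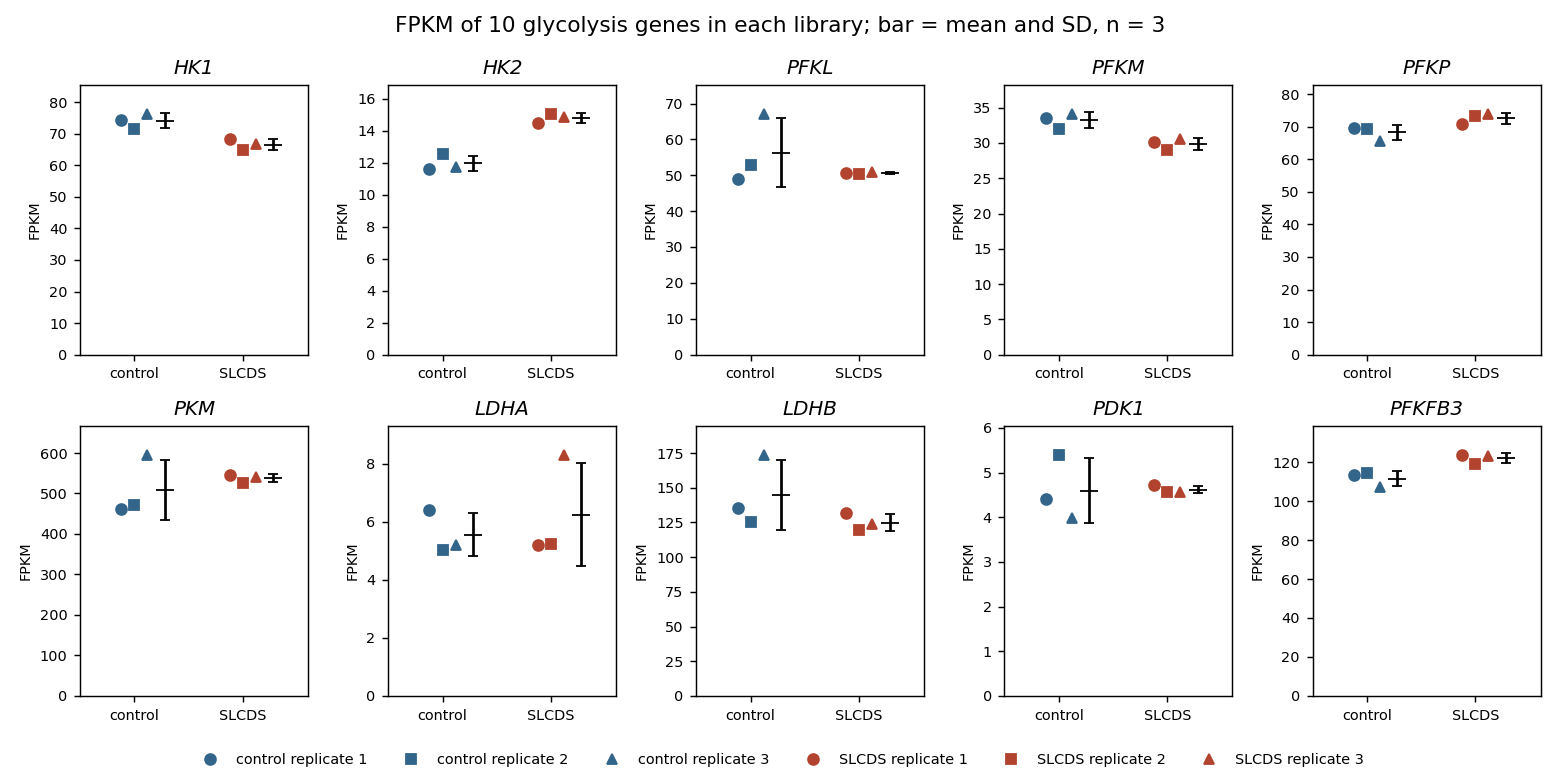
FPKM (vertical axes, each starting at 0) of the 10 genes in the 3 control and 3 SLCDS libraries; points are libraries, black bars the mean and SD (n = 3). HK2 and PFKFB3 lie higher in all SLCDS libraries than in any control, HK1 and PFKM lower, and control replicate 3 has the highest PFKL, PKM and LDHB.

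On the per-length scale PKM was by far the most abundant of the 10, at 462 to 595 FPKM over the 6 libraries, and only 37 tested genes had a higher mean. LDHB followed at 119 to 174 FPKM and PFKFB3 at 107 to 124 FPKM; the ranges of LDHB and PFKFB3 overlap. PFKP (65.7 to 74.0 FPKM) and HK1 (64.8 to 76.3 FPKM) could not be ordered, and PFKL (49.0 to 67.1 FPKM) reached their range in control replicate 3 alone. PFKM (28.95 to 34.1 FPKM) and HK2 (11.6 to 15.1 FPKM) each lay clear of their neighbours. LDHA (5.04 to 8.29 FPKM) and PDK1 (3.98 to 5.39 FPKM) were the lowest and overlapped, with 31.4% and 24.9% of tested genes below their means.

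Hexokinase traps glucose in the cell by phosphorylating it. HK1 is the widespread form and the main one of brain, and HK2 is the inducible form of muscle, fat and many tumours. HK2 was at 14.5, 15.1 and 14.9 FPKM in SLCDS replicates 1 to 3 and at 11.6, 12.5 and 11.7 FPKM in control replicates 1 to 3. All SLCDS libraries were above all controls. Its mean was 14.8 ± 0.307 FPKM (SD, n = 3) in SLCDS and 11.96 ± 0.488 FPKM in control, a log2 fold change of 0.29 (SE 0.07, 95% interval 0.13 to 0.44) that missed the threshold (limma, adjusted p = 0.0542). Without control replicate 3 HK2 was higher (log2 fold change 0.27; limma, adjusted p = 0.00405), and over 19 other settings its adjusted p ranged from 0.00218 to 0.261, under 0.05 in 3.

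HK1 went the other way, at 68.3, 64.8 and 66.7 FPKM in SLCDS and 74.5, 71.6 and 76.3 FPKM in control. The groups did not overlap, and the means were 66.6 ± 1.76 and 74.1 ± 2.40 FPKM. The log2 fold change was -0.15 (95% interval -0.31 to 0.0047; limma, adjusted p = 0.285). Without control replicate 3 HK1 was lower (log2 fold change -0.13; limma, adjusted p = 0.0393), within a range of 0.0205 to 0.698 over 19 settings. HKDC1 and HK3 were scarce: HKDC1 was at 0.40 to 0.89 FPKM in SLCDS and 0.30 to 0.48 FPKM in control, and HK3 was under 0.1 FPKM in every library.

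The balance of the 2 hexokinases can be read as a ratio within each library, which does not depend on the depth the library was scaled to. HK2 stood at 0.212, 0.232 and 0.223 of HK1 in SLCDS and at 0.156, 0.175 and 0.154 of HK1 in control. The log2 ratio was -2.17 ± 0.067 in SLCDS and -2.63 ± 0.102 in control (SD, n = 3 each), a difference of 0.46, with no overlap. The exact 2-sided permutation test gave p = 0.1, the smallest p that 3 against 3 libraries allow, and 0.25 after Benjamini-Hochberg adjustment over the 5 ratios examined. Leaving out any 1 library, control replicate 3 included, gave differences of 0.43 to 0.52. HK2 made up 18.0% ± 0.654 of the summed FPKM of HK1, HK2, HK3 and HKDC1 in SLCDS and 13.8% ± 0.848 in control, while that sum was 82.0 ± 1.30 and 86.6 ± 2.02 FPKM.

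**Figure D2:**
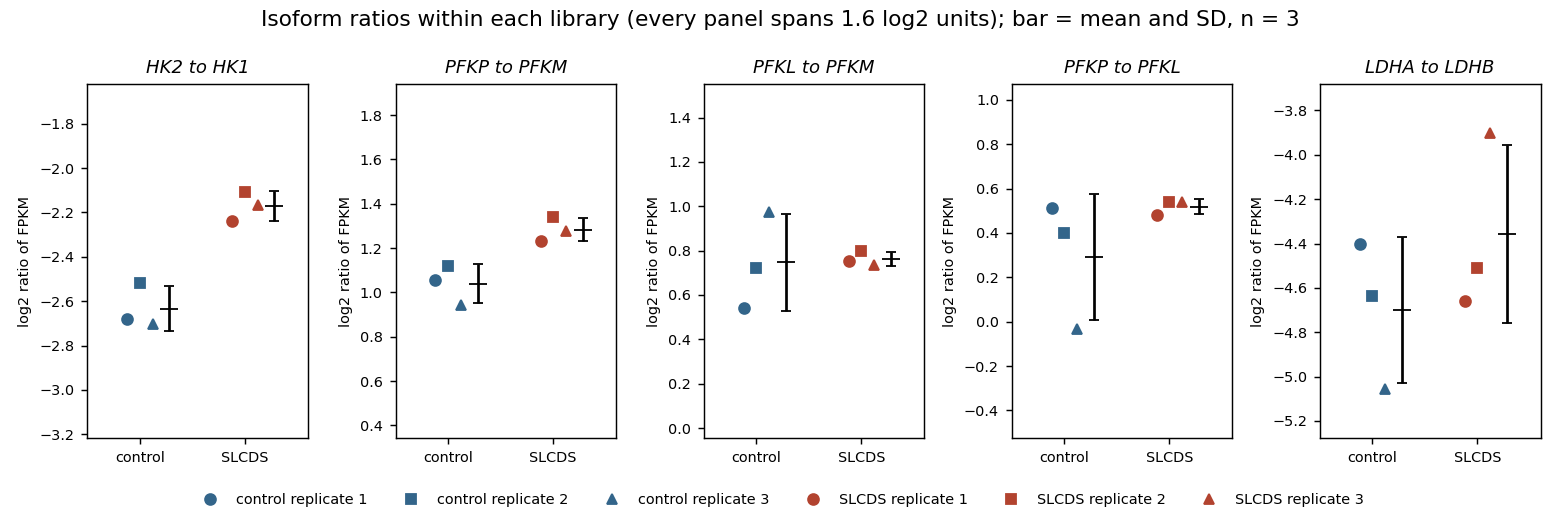
Log2 ratio of FPKM of 2 isoforms (vertical axes, each spanning the same number of log2 units) in each of 3 control and 3 SLCDS libraries; black bars are the mean and SD (n = 3). HK2 to HK1 and PFKP to PFKM lie higher in every SLCDS library than in any control, while the other 3 ratios overlap, with control replicate 3 at an extreme of each.

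The sequence around the gene starts of HK1 and HK2 was searched for short motifs. The part of any motif in the differences above was not tested. The palindrome CACGTG, the E-box bound by MYC with its partner MAX, contains ACGTG, a core that hypoxia-inducible factors bind. Both promoter windows that RefSeq gives for HK2 (build GRCh38.p14, 250 bases before to 50 after a start) hold ACGTG on one strand or the other, and none of the 7 windows of HK1 does; over all 35116 such windows 21.4% hold ACGTG and 7.26% hold CACGTG. The stretch of HK2 with 2 copies of CACGTG, in capitals, is on the plus strand at chr2:74834956-74835046, before the downstream of its 2 RefSeq starts and outside exons of GENCODE release 29. It is shown with that of PFKFB3 at chr10:6202804-6202849, plus strand, which holds 1 copy. These are the stretches outside annotated exons where a window of the 10 genes holds the palindrome.
HK2: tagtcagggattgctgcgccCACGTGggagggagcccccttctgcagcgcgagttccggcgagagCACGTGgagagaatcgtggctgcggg
PFKFB3: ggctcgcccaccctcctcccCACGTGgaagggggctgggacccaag
Over the 29 windows of the 10 genes, 8 held ACGTG (27.6%) and 3 held CACGTG (10.3%), one each of HK2, LDHA and PFKFB3. A match is a string of letters and not a binding site, and which starts U251 cells use was not measured.

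Phosphofructokinase commits the sugar to glycolysis and works as a tetramer of liver (PFKL), muscle (PFKM) and platelet (PFKP) subunits. PFKM was at 30.1, 28.95 and 30.6 FPKM in SLCDS and 33.6, 31.9 and 34.1 FPKM in control, without overlap. Its log2 fold change was -0.15 (95% interval -0.30 to 0.0051; limma, adjusted p = 0.286), and 0.061 was the adjusted p without control replicate 3. PFKP was at 70.8, 73.2 and 74.0 FPKM in SLCDS and 69.8, 69.5 and 65.7 FPKM in control, again without overlap but with a smaller difference (log2 fold change 0.09, 95% interval -0.07 to 0.25; limma, adjusted p = 0.559). PFKL was at 50.7, 50.4 and 50.9 FPKM in SLCDS and 49.0, 52.7 and 67.1 FPKM in control. Control replicate 3 alone departed from the other libraries. The log2 fold change of PFKL was -0.13 (limma, adjusted p = 0.622) and, without control replicate 3, -0.0030 (95% interval -0.10 to 0.09).

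Within libraries PFKP stood at 2.35, 2.53 and 2.42 times PFKM in SLCDS and at 2.08, 2.17 and 1.92 times PFKM in control. The log2 ratio was 1.28 ± 0.053 and 1.04 ± 0.089, a difference of 0.24 (exact permutation p = 0.1, adjusted 0.25), and 0.20 without control replicate 3. The ratio of PFKP to PFKL differed by 0.23 (exact permutation p = 0.2, adjusted 0.333) with all libraries and by 0.065 without control replicate 3, where PFKP was below PFKL. The ratio of PFKL to PFKM differed by 0.016 (exact permutation p = 0.8) and by 0.13 without control replicate 3, and its sign turned without SLCDS replicate 2 (-0.0020) or control replicate 1 (-0.086). PFKP had the largest mean share of the summed phosphofructokinase FPKM, 47.4% ± 0.669 in SLCDS and 43.4% ± 3.53 in control, and PFKM the smallest, at 19.5% ± 0.463 and 21.1% ± 0.861.

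PFKFB3 makes the regulatory sugar phosphate that activates phosphofructokinase, and is known as the PFKFB form of tumour cells and of astrocytes. It was at 124, 119 and 123 FPKM in SLCDS and 113, 114 and 107 FPKM in control. Every SLCDS library was above every control, with a log2 fold change of 0.13 (95% interval -0.04 to 0.29; limma, adjusted p = 0.402). The adjusted p was 0.0775 without control replicate 3 and 0.0775 to 0.732 over 19 settings. PFKFB3 was the dominant form in both groups, at 91.3% ± 0.129 of the summed PFKFB FPKM in SLCDS and 89.5% ± 1.26 in control, followed by PFKFB4 at 7.18% ± 0.177 and 8.68% ± 1.58.

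**Figure D3:**
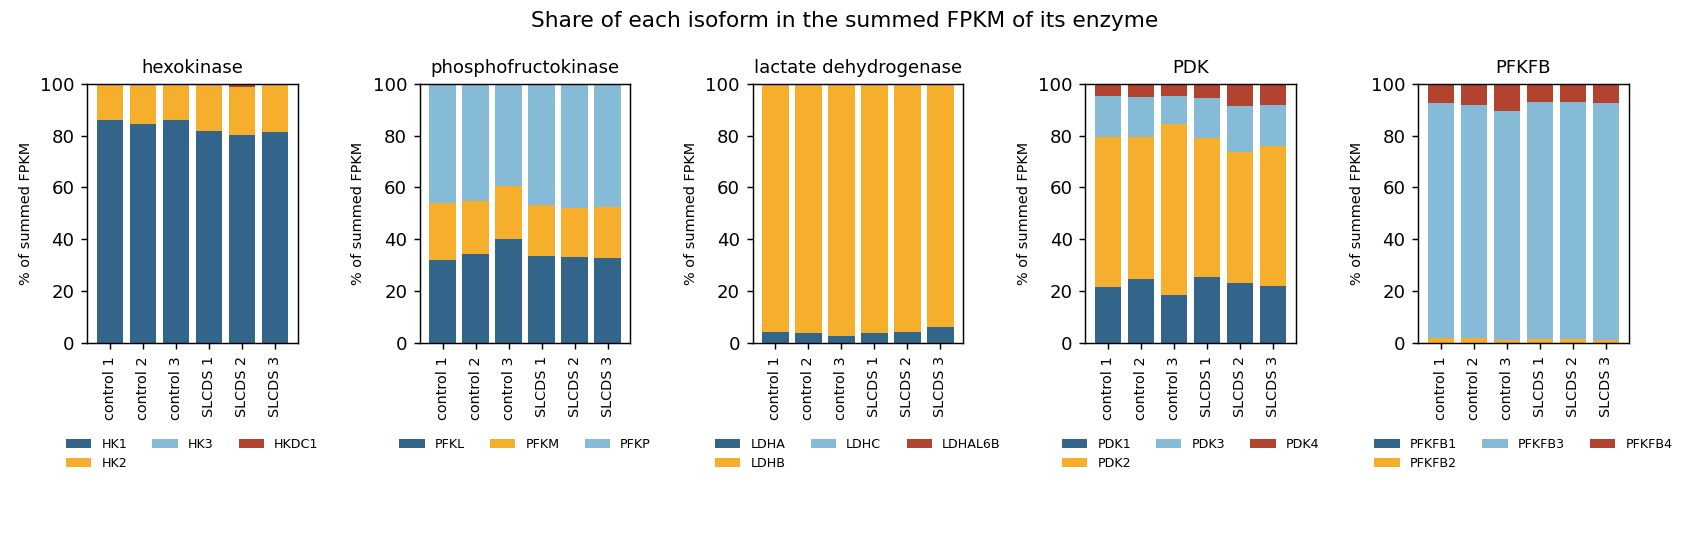
Share (%) of each isoform in the summed FPKM of its enzyme, stacked to 100%, in 3 control and 3 SLCDS libraries. HK1, PFKFB3 and LDHB make up most of their enzyme in every library, and the HK2 share is 17.3% to 18.6% in SLCDS and 13.3% to 14.8% in control.

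PKM encodes pyruvate kinase of most tissues. Its transcripts are spliced to the M1 form of muscle and neurons or the M2 form of proliferating cells, which the gene-level values do not separate. PKM was at 547, 527 and 540 FPKM in SLCDS and at 462, 472 and 595 FPKM in control. The SLCDS libraries lay between control replicates 1 and 2 on one side and control replicate 3 on the other. The log2 fold change was 0.09 (95% interval -0.20 to 0.38; limma, adjusted p = 0.773). It was 0.20 without control replicate 3 (95% interval 0.12 to 0.29; limma, adjusted p = 0.00315), and over 19 settings the adjusted p ranged from 0.00315 to 0.943, under 0.05 in 2. The liver and red cell gene PKLR gave under 0.12% of the summed pyruvate kinase FPKM in every library.

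The splicing factor genes PTBP1, HNRNPA1, HNRNPA2B1 and SRSF3, whose products favour the M2 form, did not pass in 4 of 4 cases. HNRNPA1 averaged 120 ± 1.34 FPKM with SLCDS against 140 ± 1.95 FPKM without (log2 fold change -0.21; limma, adjusted p = 0.138), and HNRNPA2B1 318 ± 12.4 against 374 ± 14.1 FPKM (log2 fold change -0.23; limma, adjusted p = 0.199). Both passed as lower once control replicate 3 was left out (limma, adjusted p = 0.00227 for HNRNPA1 and 0.00132 for HNRNPA2B1). HNRNPA1 shares 27.2% of its 75-base windows with 22 other annotated genes, so its counts may be split.

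Lactate dehydrogenase interconverts pyruvate and lactate. It is a tetramer of the A subunit, typical of glycolytic tissue, and the B subunit, typical of heart and neurons. LDHB was at 132, 119 and 124 FPKM in SLCDS and at 136, 125 and 174 FPKM in control. The groups overlap, and the log2 fold change was -0.20 (95% interval -0.50 to 0.10; limma, adjusted p = 0.484), or -0.06 (adjusted p = 0.404) without control replicate 3. LDHA was at 5.20, 5.24 and 8.29 FPKM in SLCDS and at 6.41, 5.04 and 5.21 FPKM in control. SLCDS replicate 3 alone stood out, and the log2 fold change was 0.12 (95% interval -0.28 to 0.53; limma, adjusted p = 0.771), turning to -0.07 (adjusted p = 0.89) without SLCDS replicate 3.

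LDHA was low beside LDHB in both groups. It stood at 0.0395, 0.0439 and 0.067 of LDHB in SLCDS and at 0.0472, 0.0402 and 0.030 of LDHB in control, and made up 4.76% ± 1.33 and 3.76% ± 0.803 of the summed lactate dehydrogenase FPKM. The difference in the log2 ratio, 0.34, was within the spread (exact permutation p = 0.5, adjusted 0.625), and was 0.11 without SLCDS replicate 3 and 0.16 without control replicate 3. Both levels are uncertain: GENCODE release 29 lists 6 pseudogenes named after LDHA and 3 named after LDHB, and 54.8% of the 75-base windows of the longest coding LDHB transcript, but 3.76% of those of LDHA, recur in transcripts of other genes, for LDHB in the overlapping locus AC010197.2. The aldolase gene ALDOA, singled out after its values were seen, was likewise low for a central enzyme of the pathway, with means of 1.23 ± 0.264 FPKM (SLCDS) and 0.865 ± 0.154 FPKM (control), and shares 87.9% of its windows with the overlapping locus AC093512.2. How the counting treated overlapping and repeated sequence is not given in the sources used here, and its part in these levels was not tested.

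PDK1 phosphorylates and switches off pyruvate dehydrogenase, the mitochondrial complex that turns pyruvate into acetyl-CoA. It was at 4.71, 4.56 and 4.57 FPKM in SLCDS and at 4.42, 5.39 and 3.98 FPKM in control, so the controls lay on both sides of the SLCDS libraries. The log2 fold change was 0.013 (95% interval -0.23 to 0.26; limma, adjusted p = 0.968), and -0.07 (adjusted p = 0.571) without control replicate 3. PDK2 was the main form, at 52.7% ± 1.72 of the summed PDK FPKM in SLCDS and 59.4% ± 5.75 in control, with PDK1 at 23.5% ± 1.79 and 21.7% ± 3.10. PDK2 was at 10.4 ± 0.704 and 12.5 ± 1.25 FPKM (log2 fold change -0.25; limma, adjusted p = 0.201).

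**Figure D4:**
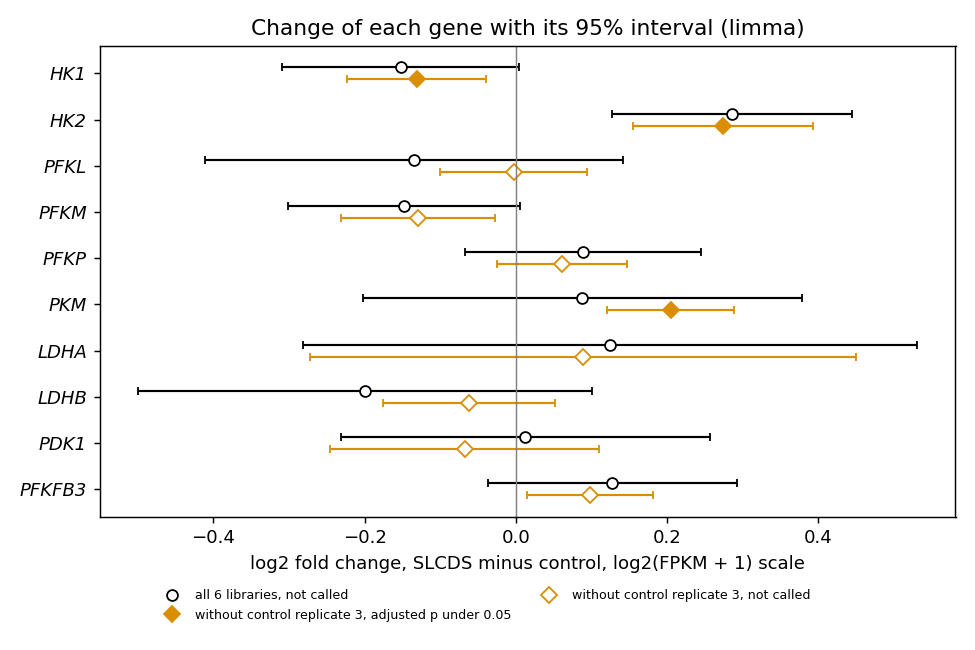
Log2 fold change of each gene, SLCDS minus control, on the log2(FPKM + 1) scale (horizontal axis) with its 95% interval from limma, over all 6 libraries (black) and without control replicate 3 (orange); filled symbols passed an adjusted p of 0.05. With all libraries no gene is filled. Without control replicate 3 HK1, HK2 and PKM are, and the interval of every gene becomes narrower.

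Around these enzymes, 104 genes of glucose metabolism in 11 lists were examined, of which 80 were tested. Over all 6 libraries 5 rose and 1 fell, beside 4.28% higher and 1.82% lower of all genes; the median log2 fold change was 0.058. The counts without control replicate 3 were 25 higher and 9 lower of 80, beside 16.0% and 11.8% of all genes. Among glucose transporters 2 of 7 tested rose and none fell. Without control replicate 3 the counts were 3 higher and 1 lower. The lower one was SLC2A8, with means of 8.72 and 11.8 FPKM over all 6 libraries (limma, adjusted p = 0.125, and 0.00812 without control replicate 3). SLC2A1, which encodes GLUT1, the main transporter of glia and tumours, was at 72.7, 71.5 and 76.1 FPKM in SLCDS and 49.97, 52.4 and 61.4 FPKM in control (log2 fold change 0.43, SE 0.09; limma, adjusted p = 0.0398). SLC2A3, which encodes GLUT3, the high-affinity transporter of neurons, was at 19.1, 19.1 and 19.0 FPKM in SLCDS and 12.3, 13.4 and 12.96 FPKM in control (log2 fold change 0.53, SE 0.07; limma, adjusted p = 0.00406). For both, every SLCDS library was above every control. SLC2A3 shares 13% of its windows with its near-copy SLC2A14. SLC2A3 passed in 19 of 19 other settings and SLC2A1 in 12, its adjusted p being 0.174, 0.155 and 0.194 without SLCDS replicates 1, 2 and 3, and 0.124 and 0.129 without control replicates 1 and 2.

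Of 12 other glycolytic enzyme genes none passed over all libraries. Mean GAPDH was 1305 ± 26.8 FPKM with SLCDS against 1311 ± 257 FPKM without (limma, adjusted p = 0.984), and the enolase gene ENO1 at 653 ± 14.6 and 705 ± 120 FPKM (adjusted p = 0.775). Leaving out control replicate 3, GAPDH, GPI, TPI1, PGK1 and ENO2 were higher and ENO3 lower, 6 of 12 beside 27.7% of all genes, with a log2 fold change of 0.17 for GAPDH (limma, adjusted p = 0.0131). Of 7 other tested genes listed as isozymes or relatives of the 6 enzymes none passed. ADPGK, which encodes an ADP-dependent kinase of glucose, was at 15.6 ± 0.424 and 13.1 ± 0.670 FPKM (limma, adjusted p = 0.116). Of the 8 pyruvate dehydrogenase complex genes none passed, with PDHB at 67.3 ± 3.09 and 67.7 ± 4.71 FPKM and PDP1 at 66.1 ± 1.52 and 60.0 ± 7.01 FPKM. Of 6 lactate and pyruvate carrier genes none passed, with the lactate carrier gene SLC16A1 at 93.2 ± 1.53 and 88.1 ± 1.13 FPKM and its chaperone gene BSG at 276 ± 6.96 and 269 ± 58.1 FPKM. The pentose phosphate genes (7 tested) and the serine synthesis branch (5 tested) had none either. TKT was at 282 ± 13.9 and 305 ± 34.2 FPKM, PGD at 103 ± 3.04 and 92.7 ± 8.98 FPKM, PSAT1 at 70.9 ± 2.80 and 58.3 ± 4.22 FPKM and PHGDH at 56.4 ± 1.91 and 69.7 ± 16.7 FPKM. Without control replicate 3, 2 of 7 pentose phosphate genes and 2 of 6 carrier genes passed, all higher. Of 5 serine branch genes, 2 were then higher and 1 lower. Among the 7 isozymes or relatives 1 was higher and 1 lower, and likewise among the 8 pyruvate dehydrogenase complex genes. The shares over all genes were 16.0% higher and 11.8% lower.

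In glycogen metabolism 1 of 8 tested genes rose and 1 fell, beside 4.28% higher and 1.82% lower of all genes. The branching enzyme gene GBE1 rose by 0.73 on the log2 scale, with means of 119 ± 7.54 FPKM under SLCDS and 71.4 ± 3.49 FPKM in control (SE 0.08; limma, adjusted p = 0.00269) and passed in 19 of 19 other settings. The glycogen phosphorylase gene PYGL fell by 0.44 on the log2 scale, with means of 19.5 ± 1.24 and 26.7 ± 0.341 FPKM (limma, adjusted p = 0.0142), and its adjusted p was 0.0568 to 0.0908 without any 1 library other than control replicate 3. PYGB, a more abundant glycogen phosphorylase gene, went the other way, at 56.8 ± 2.17 and 45.0 ± 4.26 FPKM without overlap. Its log2 fold change was 0.33 (limma, adjusted p = 0.0746), and without control replicate 3 its adjusted p was 0.000105. Of 3 tested gluconeogenic genes 1 rose, beside 4.28% of all genes. It was the pyruvate carboxylase gene PC, with means of 18.5 ± 0.688 and 12.8 ± 0.865 FPKM (log2 fold change 0.50, limma adjusted p = 0.0106). The adjusted p of PC was 0.0794, 0.0539 and 0.0721 without SLCDS replicates 1, 2 and 3. G6PC3 was at 52.8 ± 2.49 and 59.4 ± 12.8 FPKM.

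**Figure D5:**
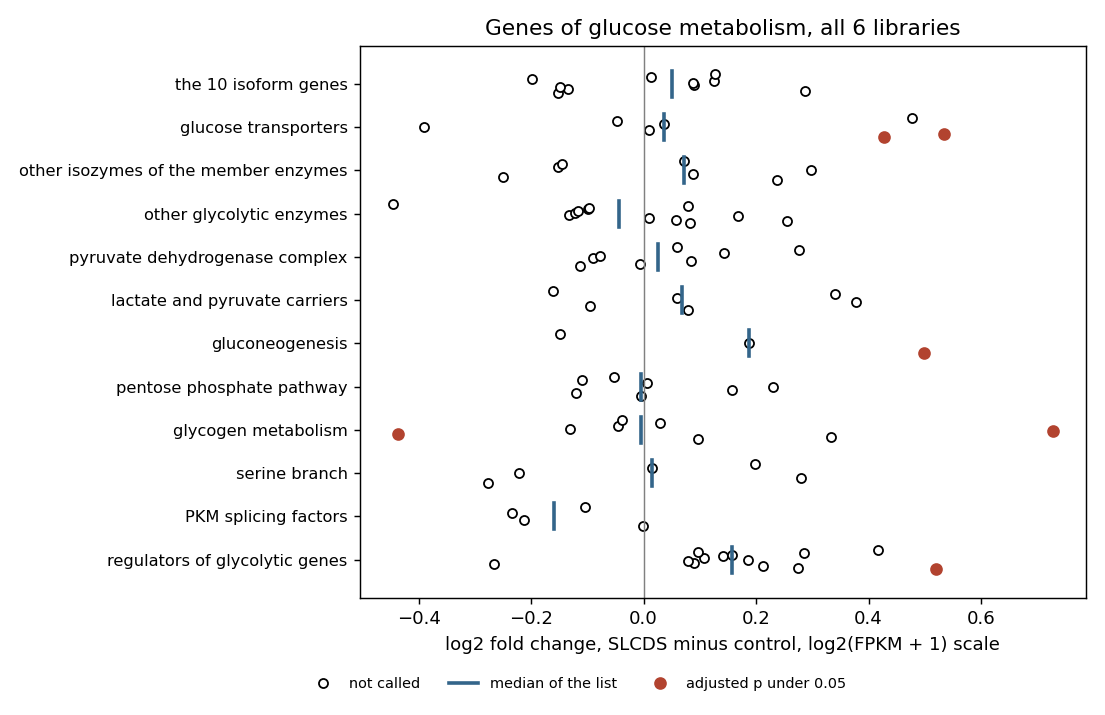
Log2 fold change, SLCDS minus control, on the log2(FPKM + 1) scale (horizontal axis) of each tested gene in the 10 isoform genes and the 11 lists around them, all 6 libraries; filled points passed an adjusted p of 0.05 in limma and blue ticks are list medians. The filled points are SLC2A1, SLC2A3, PC, GBE1, PYGL and HIF1A, and PYGL is the one below 0.

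Among 13 regulators of glycolytic genes 1 rose and none fell, beside 4.28% higher and 1.82% lower of all genes. HIF1A, which encodes the hypoxia-inducible subunit known to drive SLC2A1, HK2, LDHA and PDK1, was at 294, 291 and 286 FPKM in SLCDS and 208, 220 and 180 FPKM in control (log2 fold change 0.52, SE 0.10; limma, adjusted p = 0.0239). All SLCDS libraries were above all controls. Its adjusted p was 0.138, 0.133 and 0.128 without SLCDS replicates 1, 2 and 3 and 0.073 without control replicate 1. HIF1A passed in 13 of 19 other settings, among them without control replicate 2 (limma, adjusted p = 0.0427) or 3 (3.42e-05). VHL, whose product marks that subunit for degradation, was at 41.3 ± 1.25 and 39.1 ± 1.43 FPKM (limma, adjusted p = 0.61). Of the 13 regulators, 5 were higher and none lower without control replicate 3, beside 16.0% and 11.8% of all genes. Proliferation markers moved beside these genes: 4 of 5 (MKI67, TOP2A, MCM2 and CCNB1) rose and none fell, beside 4.28% higher and 1.82% lower of all genes, with summed levels of 64.1 to 67.3 FPKM in SLCDS and 42.2 to 48.0 FPKM in control. Leaving out any 1 SLCDS library left MKI67 alone of the 4 past the threshold, with adjusted p of 0.0777 to 0.107 for TOP2A, 0.142 to 0.207 for MCM2 and 0.169 to 0.226 for CCNB1. MCM2 (0.0659 and 0.128) and CCNB1 (0.15 and 0.146) also missed it without control replicates 1 and 2, and TOP2A (0.0544) without control replicate 2. Without control replicate 3, all 5 proliferation markers passed as higher, beside 16.0% higher of all genes. The part of these markers in the differences above was not tested.

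By the distance between profiles of log2(FPKM + 1) centred over the 6 libraries, the genes most like HK2 among 8392 others with a mean FPKM of at least 5 were the Golgi matrix gene GOLGA2 (distance 0.0622) and the palmitoyltransferase gene ZDHHC5 (0.0667). GOLGA2 was at 35.0, 36.5 and 36.1 FPKM in SLCDS and 28.4, 31.7 and 29.9 FPKM in control. The genes most like LDHB were FUNDC1 (0.048), which encodes a mitophagy receptor, and NECAP2 (0.0602), which encodes an endocytosis adaptor. FUNDC1 shows the high control replicate 3 of LDHB, at 10.7, 9.63 and 10.1 FPKM in SLCDS and 11.4, 10.3 and 14.1 FPKM in control.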

How the data were processed

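RNA sequencing of 6 U251 libraries, 3 with SLCDS and 3 control, was analysed from the linear FPKM values that the authors deposited, 1 file per library. Aligner, counter and annotation were not given in the sources used here. GRCm38 and mm10, which are mouse builds, appear in the submitters' processing notes, while the symbols are human, so coordinates come only from RefSeq GRCh38.p14. Groups and replicate numbers came from sample titles. No gene above 0 had equal values in 2 libraries.

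The 11506 of 16832 genes that reached 1 FPKM in 3 libraries or more were tested. Their log2(FPKM + 1) values were fitted in R 4.3.3 by limma 3.58.1 (trended prior, 2-sided), and p-values were adjusted over all of them by the Benjamini-Hochberg method; folds on this scale understate the change of low genes. The fit was tested on simulated data with the same spread in every library, so that test does not cover a library standing apart like control replicate 3. Isoform ratios used FPKM without a pseudocount and exact permutation tests in scipy 1.17.1. Depth came from the steps between FPKM values under 0.5, and its absolute scale from 451 low genes of 1 annotated transcript each; 172 of them (38.1%) lay within 5% of the mode. Sequence sharing was counted in 75-base windows of the longest coding transcript in GENCODE release 29.

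The 10 genes and the lists were chosen with earlier results of these data known; 1 listed gene is counted but not reported here. Named genes are the 10, up to 4 called genes of each list or, where fewer than 2 were called, its 2 most abundant tested genes, and the nearest profiles of the 2 genes with the largest change. GFAP and others named only in counts, and ALDOA, COL1A1, COL1A2, MYC, PYGB and SLC2A8, fall outside this rule. Alternatives were other pseudocounts, filters, scalings, variance priors, library weights, a replicate block, each library left out and, chosen after the data were seen, removal of each library's trend with transcript length and GC content (splines of 4 degrees of freedom, 98% of tested genes).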

Additional observations from a re-analysis of the deposited data

How the results depend on the processing

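Over all genes 701 passed. The count was 324 with a mean FPKM of at least 5, 3277 with library weights from limma (control replicate 3 weighted 0.0652 against 1.49 to 2.10), 455 with the replicate block, 2024 with the length and GC trend removed, and 276 to 3191 with 1 library left out, the highest without control replicate 3, where all 701 were among the 3191. The main split of 492 higher and 209 lower became 1042 and 982 with the trend removed, 1845 and 1432 with library weights, and 1838 and 1353 without control replicate 3. Of the 10 isoform genes none passed; 1 did with no filter (HK2, adjusted p = 0.0486), 3 with library weights (HK1, HK2 and PKM), 2 with the trend removed (HK1 and PFKM, both lower), and 0 to 3 with 1 library left out. Of the pathway genes 6 passed, and 33 with library weights, 3 with the replicate block, 22 with the trend removed and 2 to 34 with 1 library left out. The count for these genes stayed within 1.5 times under the other scalings, pseudocounts and variance priors.

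The difference in log2 ratio of PFKL to PFKM, 0.016, ranged from -0.086 to 0.13 with 1 library left out, negative without SLCDS replicate 2 (-0.0020) and control replicate 1 (-0.086); the other 4 ratios kept their sign. Same-numbered libraries deviated together with correlations of -0.326, 0.36 and 0.0652, so the numbers were not taken to pair them; 1 of 3 SLCDS libraries correlated best with its own number. At this depth LDHA and PDK1, near 5 FPKM, rest on the fewest fragments of the 10.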
